A study of Mus musculus with 40 samples.

Results

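Described here are genes that were picked for the way their transcript levels in spleen B cells with and without Dock10 parted during culture and on addition of IL-4: Serpinb2, Thbs1, Cables1, Itih5, Upb1, Mmp13, Cdh1, Hao1, Susd4 and Cnksr1. They are 10 of 21892 genes measured, and each was read by 1 probe. The genes were chosen on the same cultured arrays, so their levels and differences in the cells of mice 6 to 10 are given as a description, with no test. The cells of mice 1 to 5, studied only before culture, did not enter the choice and allow a test.

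Oligonucleotide arrays with 2 dyes were hybridised with RNA of B cells isolated from spleen by negative selection, from C57BL/6 mice of 12 weeks. The groups were Dock10 knockout cells and wild-type cells cultured for 18 h with mouse recombinant IL-4 at 10 ng/ml (KO_IL4 and WT_IL4, n = 5 each), the same 18 h with nothing added (KO_Ctrl and WT_Ctrl, n = 5 each), and cells before culture (KO_Pre and WT_Pre, n = 10 each). The 4 cultured groups and the cells before culture numbered 6 to 10 carry the same mouse numbers. All values are log2 ratios of a sample to 1 common reference, per the labels a pool of KO_Pre RNA of mice 6 to 10. A value of 0 is thus the level of that pool, and 1 unit is a 2-fold difference. The labels do not say how the Dock10 allele was made or in which cells it is lost, and the reference is itself knockout RNA. In bulk samples such as these, fewer cells of a type and less RNA per cell cannot be told apart.

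Dock10 is a guanine nucleotide exchange factor that activates the small GTPases Cdc42 and Rac, which organise the actin cytoskeleton. IL-4, made by T helper cells among others, signals in B cells mainly through the transcription factor STAT6, which induces, among others, the low affinity IgE receptor and MHC class II. The 10 genes come from separate pathways. Serpinb2, Mmp13 and Thbs1 encode regulators of proteolysis and matrix, Cdh1 an adhesion molecule, Susd4 a complement inhibitor, Cables1 and Cnksr1 adaptors in signalling, Hao1 and Upb1 enzymes of liver metabolism, and Itih5 a hyaluronan-binding matrix protein.

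Several properties of the arrays bear on the values. The ratio at dark corner controls, spots that hold no target and give the background, averaged -1.08 in KO_IL4, -0.52 in WT_IL4, -1.34 in KO_Ctrl and -1.07 in WT_Ctrl (n = 5 each). Before culture it averaged 0.86 in KO_Pre and 0.37 in WT_Pre of mice 6 to 9 (n = 4 each), and -0.72 in KO_Pre and -0.87 in WT_Pre of mice 1 to 5 (n = 5 each). A gene whose ratio lies within 0.5 of its array's dark corner ratio is called near background here, and the ratio then does not show that its RNA was detected. Signal intensities were not used here, so whether a sample's own signal stood above background cannot be read from a ratio far from it either. Where a group lay near or below that ratio, the log2 difference of the ratios is therefore given with no fold. Among the arrays before culture, those of mice 1 to 4 and 10 of both genotypes had Xist ratios of 4.74 to 5.92 and ratios of the Y-linked Eif2s3y of -11.14 to -10.1, against -1.59 to 0.85 and -0.15 to 0.68 in the other 30 arrays. High Xist without the Y-linked signal is the pattern of female mice, so the former arrays read as female and the other 30 as male. All cultured arrays are among the latter. The arrays numbered 10 before and after culture thus do not read as the same animal, and differences to the cells before culture are also given without mouse 10. The KO_Pre array numbered 10 had an Xist ratio of 4.99 to a pool that, per the labels, holds RNA of that number. The pool thus does not read as holding an equal share of that array's RNA, and its make-up was not tested further. The probe for Dock10 averaged 0.52 ± 0.21 in KO_IL4 and 1.59 ± 0.31 in WT_IL4, and -1.12 ± 0.33 in KO_Ctrl and -0.57 ± 0.22 in WT_Ctrl (SD, n = 5 each). It was lower in knockout cells by limma with IL-4 (log2 difference -1.07, SE 0.17, adjusted p = 0.000223) and without it (-0.54, SE 0.17, adjusted p = 0.0295), with 1 of 5 KO_Ctrl and 3 of 5 WT_Ctrl arrays near background. Before culture Dock10 was not called, with differences of -0.38 in mice 6 to 10 and -0.37 in mice 1 to 5 (adjusted p = 1 by limma in each). Its place relative to the deleted part is not given in the sources used here. Of 8 B cell markers, 6 were called lower in KO_Ctrl than in WT_Ctrl (8.43% of all genes were), and the mean ratio of the 8 was -1.12 ± 0.10 in KO_Ctrl and -0.45 ± 0.25 in WT_Ctrl (SD, n = 5 each). With IL-4, 3 of the 8 were called lower (9.85% of all genes were), with means of -0.94 ± 0.13 in KO_IL4 and -0.69 ± 0.17 in WT_IL4 (SD, n = 5 each). After quantile normalization the difference of the means was -0.48 without IL-4 and -0.04 with it. The marker means in KO_IL4, WT_IL4 and KO_Ctrl lay within 0.5 of the mean dark corner ratios of these groups. Of the 8 markers, 3 were near background in every KO_IL4 array and 1 in every WT_IL4 array, and none in every KO_Ctrl or WT_Ctrl array. These marker differences are thus set in part against levels that may not be detected.

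By size, 9 of the 10 genes differed at least 2-fold between KO_IL4 and WT_IL4, where 6.67% of all genes did. Between KO_Ctrl and WT_Ctrl 6 of 10 differed at least 2-fold, against 3.59% of all genes. The IL-4 effect, which is the log2 ratio with IL-4 minus that without, differed at least 2-fold between genotypes for 8 of 10 genes and 7.51% of all genes. The culture effect, the ratio after culture without IL-4 minus that before it, differed at least 2-fold for 8 of 10 genes and 6.04% of all genes. The 5 KO_IL4 and 5 WT_IL4 arrays did not overlap for 6 of the genes (17.9% of all genes), and the KO_Ctrl and WT_Ctrl arrays for 4 of them (10.4% of all genes). In counts here and below, 2-fold stands for a log2 difference of at least 1, also where a group lay near or below the dark corner ratio. These counts follow from the selection and are set beside the shares of all genes without further reading.

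**Figure D1:**
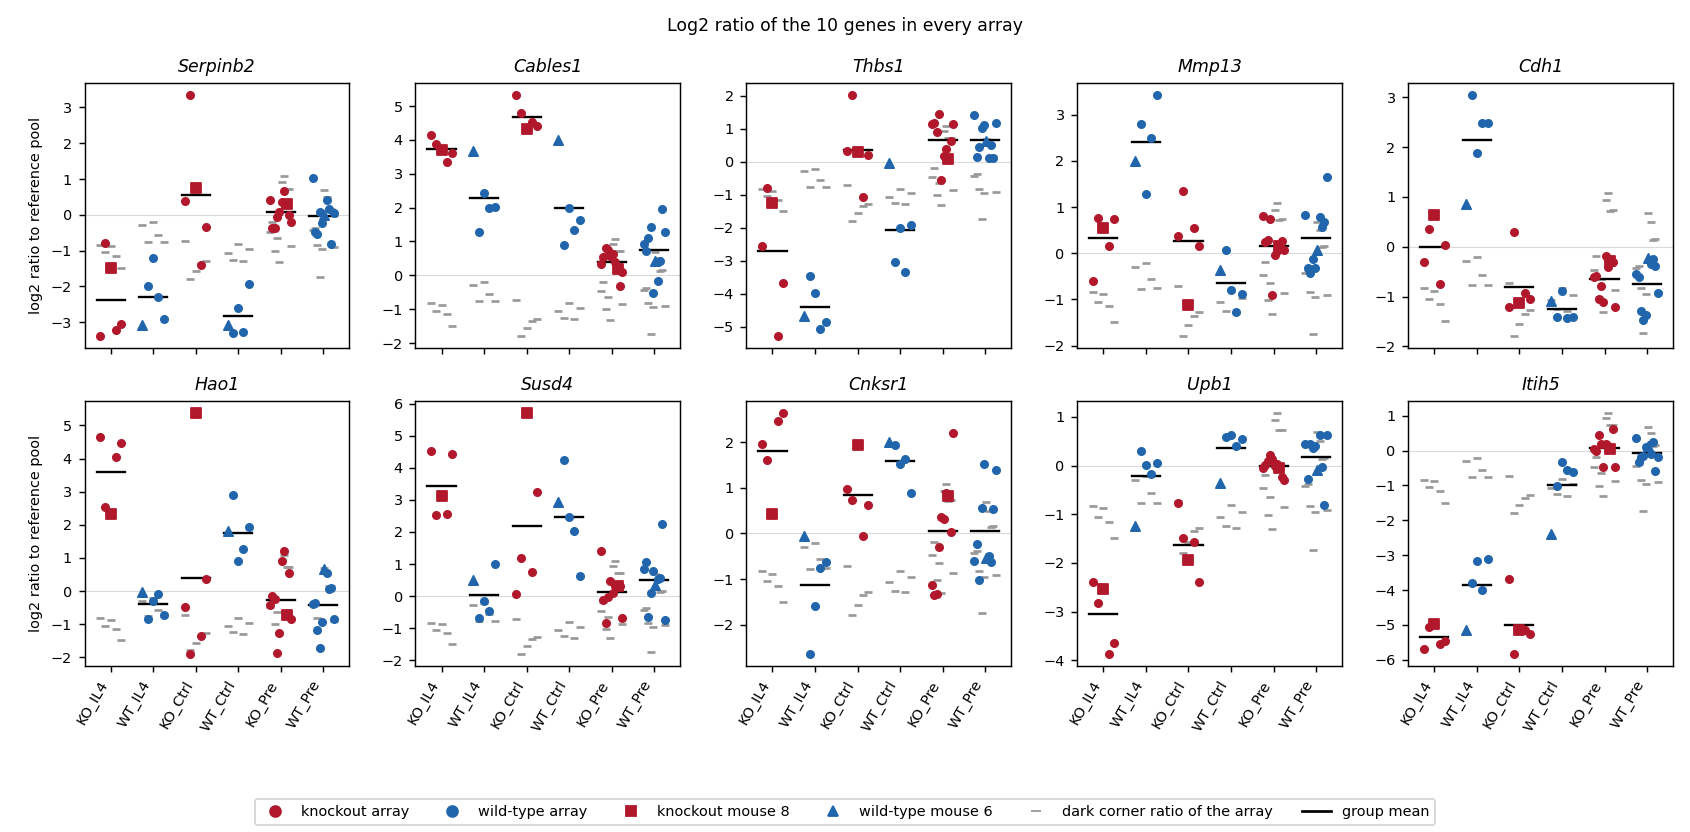
Log2 ratio to the reference pool (vertical axis) of the 10 genes in every array, by group (horizontal axis). Red points are knockout and blue points wild-type arrays, squares are knockout mouse 8, triangles wild-type mouse 6, black lines group means and grey dashes the dark corner ratio of each array. Itih5 lies between -5.82 and -3.68 in KO_Ctrl, below all WT_Ctrl arrays, and Hao1 between 2.34 and 4.64 in KO_IL4, above all WT_IL4 arrays.

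Serpinb2, Thbs1 and Cables1 stood higher in knockout cells cultured without IL-4, and their levels in those cells were lower when IL-4 was present. Serpinb2 (Entrez Gene 18788, probe A_55_P2004867) encodes plasminogen activator inhibitor 2, a serpin that inhibits urokinase and tissue plasminogen activator. With IL-4 its log2 ratios in mice 6 to 10 were -3.38, -0.78, -1.48, -3.22 and -3.05 in KO_IL4, against -3.07, -1.98, -1.21, -2.30 and -2.90 in WT_IL4. These groups overlapped, and their means of -2.38 and -2.29 differed by less than the spread within either group. Without IL-4 the log2 ratios were 0.39, 3.34, 0.75, -1.39 and -0.33 in KO_Ctrl, against -3.08, -3.31, -2.59, -3.27 and -1.93 in WT_Ctrl. Every KO_Ctrl array lay above every WT_Ctrl array, and the KO_Ctrl arrays spread over more than 4 units, with mouse 7 highest. The difference of the means without IL-4 was 3.39 on the log2 scale (SE 0.59), with all WT_Ctrl arrays below their dark corner ratios (differences to them of -2.06 to -0.98).

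In knockout cells the IL-4 effect was -2.93 ± 0.98 and downward in 5 of 5 mice, against 0.55 ± 1.01 and upward in 4 of 5 wild-type mice (SD, n = 5 each). The difference between these effects was -3.48 (SE 0.84). All WT_IL4 arrays also lay below their dark corner ratios (differences to them of -2.78 to -1.01). In KO_IL4 1 of 5 arrays was near background and the others lay below it. The IL-4 effects of Serpinb2 are thus set against levels that may not be detected, on both sides in wild-type cells. Of the 4 upward wild-type effects, that of mouse 6 was 0.0 after rounding. After culture without IL-4 Serpinb2 was higher than before it in 3 of 5 knockout mice and lower in 5 of 5 wild-type mice. The culture effect was 0.34 ± 1.48 in knockout cells and -2.80 ± 0.66 in wild-type cells (n = 5 each), and 0.45 ± 1.69 and -3.00 ± 0.55 without mouse 10 (SD, n = 4 each). Before culture the ratios ran from -0.37 over a median of 0.03 to 0.66 in KO_Pre, and from -0.82 over 0.02 to 1.03 in WT_Pre (n = 10 each).

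The promoter of Serpinb2 is shown because it holds, in the window from 250 bases before to 50 after the start, the motifs of 2 factor families that act in cytokine and stress responses. Capitals mark TGANTCA, bound by AP-1 factors, at -94 to -88, and TTCNNNGAA, bound by STAT factors, at 10 to 18 from the first of 2 RefSeq start sites. It lies at chr1:107511173-107511472, plus strand, GRCm38.p6 (RefSeq).

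Serpinb2: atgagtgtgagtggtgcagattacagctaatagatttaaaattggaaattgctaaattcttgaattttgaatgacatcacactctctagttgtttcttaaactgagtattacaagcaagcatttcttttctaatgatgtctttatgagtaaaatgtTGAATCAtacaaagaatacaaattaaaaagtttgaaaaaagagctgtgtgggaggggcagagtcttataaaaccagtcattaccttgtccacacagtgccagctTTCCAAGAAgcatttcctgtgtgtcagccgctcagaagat

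Both strands were searched, and no match overlapped another. TGANTCA was found in 7.81% and TTCNNNGAA in 8.30% of 32851 RefSeq promoter windows of the same length. The STAT6 form, with 1 more base between the TTC and GAA ends, was found in none of the 7 of the 10 genes whose windows were searched, and in 6.95% of all windows. A match is a description of letters and not of binding.

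Thbs1 (Entrez Gene 21825, probe A_55_P2017636) encodes thrombospondin 1, a matrix glycoprotein abundant in platelet granules that binds the receptors CD36 and CD47. The ratios in mice 6 to 10 with IL-4 were -2.56, -0.81, -1.26, -5.27 and -3.67 in KO_IL4, against -4.68, -3.45, -3.96, -5.07 and -4.86 in WT_IL4. Knockout mice 6, 7 and 8 lay above all WT_IL4 arrays, and mouse 9 below them. Without IL-4 they were 0.33, 2.01, 0.28, -1.08 and 0.21 in KO_Ctrl, against -0.05, -3.03, -2.02, -3.34 and -1.92 in WT_Ctrl. All KO_Ctrl arrays but that of mouse 9 lay above all WT_Ctrl arrays, and wild-type mouse 6 lay among the knockout values. The mean difference was 1.69 (SE 0.65) with IL-4, and 2.42 (SE 0.65) without it. Leaving out wild-type mouse 6 gave 1.62 and 2.92. All WT_IL4 arrays lay below their dark corner ratios (differences to them of -4.51 to -2.68). In KO_IL4 2 of 5 arrays were near background and the others lay below it. All WT_Ctrl arrays but that of mouse 6 lay below it too (differences of -2.05 to 1.01 with mouse 6). The genotype differences and the IL-4 effects of Thbs1 are thus set in part against levels that may not be detected. Thbs1 was lower with IL-4 than without it in every mouse of both genotypes, with a mean IL-4 effect of -3.06 ± 1.04 in knockout and -2.33 ± 1.57 in wild-type cells (SD, n = 5 each). The difference between these effects, -0.73 (SE 0.92), was smaller than its error and hung on single arrays. It was -1.31 without wild-type mouse 6, -1.24 without WT_Ctrl mouse 6 and -1.21 without KO_IL4 mouse 7, and -0.42 without WT_Ctrl mouse 9, -0.32 without KO_Ctrl mouse 7 and -0.09 without KO_IL4 mouse 9. The culture effect was -0.13 ± 1.27 in knockout and -2.57 ± 1.11 in wild-type cells (n = 5 each), and 0.07 ± 1.37 and -2.44 ± 1.24 without mouse 10 (SD, n = 4 each). Before culture Thbs1 ran from -0.54 over a median of 0.77 to 1.45 in KO_Pre and from 0.10 over 0.56 to 1.40 in WT_Pre (n = 10 each).

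Platelet markers were read beside Serpinb2 and Thbs1. The 6 platelet and megakaryocyte markers averaged -2.0 (range -2.65 to -1.15) in KO_IL4 and -2.18 (-2.62 to -1.26) in WT_IL4, and -0.99 (-1.79 to -0.08) in KO_Ctrl and -1.67 (-2.43 to -0.50) in WT_Ctrl. The ranges overlapped in both states. None of the 6 was called with IL-4, and without it 1 was called higher and none lower, where 6.87% of all genes were called higher. That gene, Pf4, encodes platelet factor 4 (log2 difference 1.38, SE 0.41, adjusted p = 0.0204 by limma), with a mean ratio of 0.23 in KO_Ctrl and -1.15 in WT_Ctrl. The WT_Ctrl mean lay within 0.5 of that group's mean dark corner ratio, -1.07. The part of platelet RNA in the levels of Thbs1 and Serpinb2 was not tested. The 5 erythroid markers averaged 0.64 (0.40 to 1.01) in KO_Ctrl and -0.38 (-0.74 to 0.19) in WT_Ctrl, and 1 of them was called higher and 4 were not called. The called gene, Hbb-b1, a beta globin, had a difference of 2.60 (SE 0.44, adjusted p = 0.000141 by limma), and the others 0.47 to 0.80. Their part was not tested either.

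Cables1 (Entrez Gene 63955, probe A_51_P117581) encodes an adaptor that links cyclin-dependent kinases to the tyrosine kinase Abl. Its mean ratio in KO_Ctrl, 4.68 ± 0.40 (SD, n = 5), lay farthest above 0 of all group means of the 10 genes. The ratios in mice 6 to 10 with IL-4 were 4.14, 3.88, 3.70, 3.35 and 3.62 in KO_IL4, against 3.68, 1.27, 2.44, 1.99 and 2.02 in WT_IL4. Without it they were 5.32, 4.79, 4.32, 4.54 and 4.41 in KO_Ctrl, against 3.99, 0.91, 1.99, 1.34 and 1.64 in WT_Ctrl. With IL-4 only wild-type mouse 6 reached into the knockout range, and without it the groups did not overlap. The mean difference was 1.46 (SE 0.45), 2.75-fold, with IL-4 and 2.70 (SE 0.45), 6.52-fold, without it. Leaving out wild-type mouse 6 gave 1.81 with IL-4 and 3.21 without it, and quantile normalization gave 0.97 with IL-4. The IL-4 effect was -0.94 ± 0.24 in knockout cells, downward in 5 of 5 mice, and 0.31 ± 0.36 in wild-type cells, upward in 4 of 5 (SD, n = 5 each).

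Cables1 was higher after culture than before it in most mice. Its culture effect was 4.48 ± 0.29 in knockout cells, upward in 5 of 5 mice, and 1.19 ± 1.56 in wild-type cells, upward in 4 of 5 (SD, n = 5 each). Without mouse 10 the values were 4.52 ± 0.32 and 1.39 ± 1.72 (SD, n = 4 each). Before culture Cables1 ran from -0.32 over a median of 0.46 to 0.81 in KO_Pre and from -0.51 over 0.83 to 1.96 in WT_Pre (n = 10 each).

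Itih5 and Upb1 were lower in knockout cells after culture, with IL-4 and without it. Itih5 (Entrez Gene 209378, probe A_55_P2077048) encodes a heavy chain of the inter-alpha-trypsin inhibitor family, whose members bind hyaluronan in the matrix. The ratios in mice 6 to 10 with IL-4 were -5.68, -5.06, -4.96, -5.54 and -5.46 in KO_IL4, against -5.13, -3.81, -3.18, -4.00 and -3.12 in WT_IL4. Here wild-type mouse 6 lay inside the knockout range, and the mean difference was -1.49 (SE 0.38), -1.82 without wild-type mouse 6 and -0.84 after quantile normalization. The ratios without IL-4 were -3.68, -5.82, -5.13, -5.14 and -5.25 in KO_Ctrl, against -2.39, -1.01, -0.34, -0.55 and -0.61 in WT_Ctrl. These groups did not overlap, and mouse 6 was the closest to the other genotype in each of them. In the mean they differed by -4.02 (SE 0.38).

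In knockout cells Itih5 was low after culture alone, with a culture effect of -5.10 ± 0.83 and an IL-4 effect of -0.34 ± 1.03 (SD, n = 5 each). In wild-type cells the culture effect was -0.88 ± 0.98 and the IL-4 effect -2.87 ± 0.35, downward in 5 of 5 mice (SD, n = 5 each). Without mouse 10 the culture effects were -5.18 ± 0.94 in knockout and -1.0 ± 1.09 in wild-type cells (SD, n = 4 each). The difference of the culture effects was -4.22 (SE 0.54). Every KO_IL4, WT_IL4 and KO_Ctrl array lay below its dark corner ratio, with differences to it of -2.35 or lower, and 3 of 5 WT_Ctrl arrays lay near it. Before culture Itih5 ran from -0.48 over a median of 0.09 to 0.61 in KO_Pre and from -0.58 over -0.12 to 0.35 in WT_Pre (n = 10 each).

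Upb1 (Entrez Gene 103149, probe A_51_P183051) encodes beta-ureidopropionase, the enzyme of the last step of pyrimidine breakdown. With IL-4 the ratios in mice 6 to 10 were -2.39, -2.83, -2.53, -3.86 and -3.64 in KO_IL4, against -1.24, 0.29, 0.01, -0.17 and 0.06 in WT_IL4. Without IL-4 they were -0.77, -1.49, -1.94, -1.57 and -2.40 in KO_Ctrl, against -0.36, 0.58, 0.63, 0.41 and 0.55 in WT_Ctrl. The groups did not overlap in either state, and wild-type mouse 6 was the lowest wild-type array in both. The mean difference was -2.84 (SE 0.33) with IL-4 and -2.0 (SE 0.33) without it. Upb1 was lower with IL-4 in all 10 mice, by -1.41 ± 0.62 in knockout and -0.57 ± 0.21 in wild-type cells, while culture alone had an effect of -1.53 ± 0.52 in knockout and 0.30 ± 0.63 in wild-type cells (SD, n = 5 each). Without mouse 10 the culture effects were -1.38 ± 0.47 in knockout and 0.40 ± 0.69 in wild-type cells (SD, n = 4 each). In KO_Ctrl 4 of 5 arrays were near background, and none in KO_IL4, where the differences to the dark corner ratio were -1.55 or lower. Before culture Upb1 ran from -0.30 over a median of 0.01 to 0.21 in KO_Pre and from -0.82 over 0.38 to 0.63 in WT_Pre (n = 10 each).

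Mmp13 and Cdh1 were higher with IL-4 in all wild-type mice, with a smaller mean difference in knockout mice. Mmp13 (Entrez Gene 17386, probe A_51_P184484) encodes collagenase 3, a metalloproteinase that cleaves fibrillar collagen. In the cultures with IL-4 the ratios in mice 6 to 10 were -0.60, 0.77, 0.54, 0.15 and 0.74 in KO_IL4, against 2.00, 2.79, 1.29, 2.49 and 3.42 in WT_IL4. Without it they were 0.38, 1.34, -1.13, 0.55 and 0.15 in KO_Ctrl, against -0.36, 0.07, -0.79, -1.28 and -0.88 in WT_Ctrl. All KO_IL4 arrays stood below all WT_IL4 arrays (mean difference -2.08, SE 0.38), and the control groups overlapped through knockout mouse 8. The IL-4 effect was 0.06 ± 1.07 in knockout cells, upward in 2 of 5 mice, and 3.05 ± 0.95 in wild-type cells, upward in 5 of 5 (SD, n = 5 each). The effects differed by -2.98 (SE 0.54). Culture alone had an effect of 0.16 ± 0.93 in knockout and -1.40 ± 0.87 in wild-type cells (n = 5 each), and 0.18 ± 1.07 and -1.12 ± 0.68 without mouse 10 (SD, n = 4 each). In WT_Ctrl 3 of 5 arrays were near background, so the wild-type effect is set in part against background. Before culture Mmp13 ran from -0.90 over a median of 0.20 to 0.80 in KO_Pre and from -0.42 over 0.32 to 1.65 in WT_Pre (n = 10 each).

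The window at the Mmp13 start is shown because its AP-1 motif lies close to the start, in a gene known as a target of AP-1 in connective tissue cells. Capitals mark TGANTCA at -35 to -29, at chr9:7272264-7272563, plus strand, GRCm38.p6 (RefSeq). Neither STAT form was found in it.

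Mmp13: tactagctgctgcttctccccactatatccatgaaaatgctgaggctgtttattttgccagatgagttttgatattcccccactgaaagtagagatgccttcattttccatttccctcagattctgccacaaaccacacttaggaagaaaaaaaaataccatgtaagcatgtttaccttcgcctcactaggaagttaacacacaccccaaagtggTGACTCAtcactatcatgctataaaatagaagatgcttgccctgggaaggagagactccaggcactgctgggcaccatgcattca

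Cdh1 (Entrez Gene 12550, probe A_51_P137336) encodes E-cadherin, which joins neighbouring epithelial cells. In the presence of IL-4 its ratios in mice 6 to 10 were -0.31, 0.35, 0.63, -0.75 and 0.03 in KO_IL4, against 0.85, 3.04, 1.88, 2.49 and 2.48 in WT_IL4. The ratios without IL-4 were -1.22, 0.30, -1.12, -0.93 and -1.04 in KO_Ctrl, against -1.09, -1.41, -0.89, -1.44 and -1.41 in WT_Ctrl. With IL-4 the groups did not overlap (mean difference -2.16, SE 0.33), and wild-type mouse 6 was the closest to the knockout arrays. Cdh1 was higher with IL-4 in all 10 mice, by 0.79 ± 0.70 in knockout and 3.40 ± 1.02 in wild-type cells (SD, n = 5 each), a difference of -2.60 (SE 0.46). Near background were 4 of 5 KO_Ctrl and all 5 WT_Ctrl arrays, so the effect in wild-type cells is set against a level that may not be detected. Culture alone had an effect of -0.32 ± 0.73 in knockout and -0.82 ± 0.26 in wild-type cells (n = 5 each), and -0.45 ± 0.78 and -0.91 ± 0.20 without mouse 10 (SD, n = 4 each). Before culture 6 of 10 KO_Pre and 7 of 10 WT_Pre arrays were near background, with medians of -0.60 and -0.57.

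**Figure D2:**
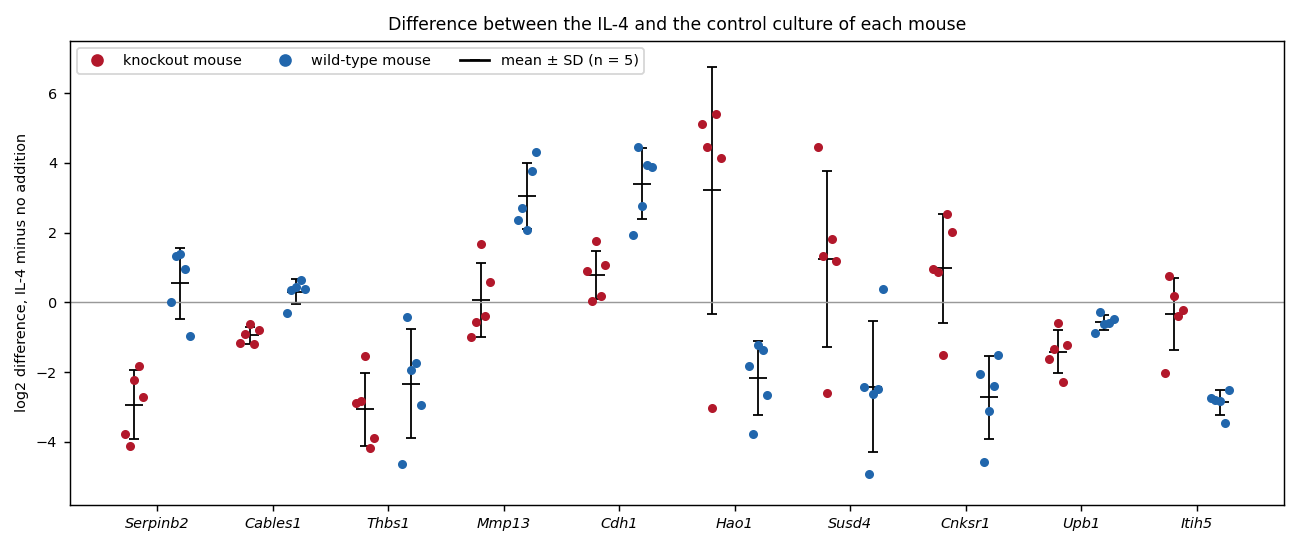
Log2 difference between the IL-4 culture and the culture without addition of the same mouse (vertical axis) for each gene, knockout mice in red on the left and wild-type mice in blue on the right. Black bars are the mean and SD of 5 mice. Mmp13 lies above 0 in 2 knockout mice and in all 5 wild-type mice, and for Hao1, Susd4 and Cnksr1 1 knockout mouse, number 8, lies below 0 and the other 4 above it.

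Hao1, Susd4 and Cnksr1 were higher with IL-4 than without it in most knockout mice and lower with it in most wild-type mice. Hao1 (Entrez Gene 15112, probe A_66_P105270) encodes glycolate oxidase, a peroxisomal enzyme of liver that makes glyoxylate. With IL-4 the ratios in mice 6 to 10 were 4.64, 2.54, 2.34, 4.04 and 4.48 in KO_IL4, against -0.03, -0.86, -0.29, -0.08 and -0.71 in WT_IL4. Every KO_IL4 array stood at least 3.23 above its dark corner ratio, and all 5 WT_IL4 arrays were near background. The mean difference was 4.01 (SE 0.84), set against a level that may not be detected. In cultures without IL-4 the ratios were -0.47, -1.89, 5.38, -1.37 and 0.35 in KO_Ctrl, against 1.80, 2.90, 0.92, 1.27 and 1.94 in WT_Ctrl.

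Knockout mouse 8 stood apart from the other KO_Ctrl arrays in Hao1. Its ratio of 5.38 was the highest of all arrays, and the other 4 KO_Ctrl arrays lay below all WT_Ctrl arrays, with 3 of 5 KO_Ctrl arrays near background. The mean of KO_Ctrl was 0.40 ± 2.91 (SD, n = 5) and -0.85 ± 0.99 without mouse 8 (SD, n = 4), against 1.77 ± 0.76 in WT_Ctrl (SD, n = 5). The difference between KO_Ctrl and WT_Ctrl was -1.36 (SE 0.84), -2.61 without knockout mouse 8 and -0.79 without knockout mouse 7. The IL-4 effect was 3.21 ± 3.53 in knockout cells, upward in 4 of 5 mice, and -2.16 ± 1.06 in wild-type cells, downward in 5 of 5 (SD, n = 5 each). Without knockout mouse 8 it was 4.77 ± 0.59 in knockout cells, upward in 4 of 4 mice (SD, n = 4). The difference of the IL-4 effects over all mice was 5.37 (SE 1.19).

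Hao1 gave low and scattered ratios before culture. The culture effect was 0.18 ± 3.67 in knockout and 1.67 ± 0.85 in wild-type cells (n = 5 each), and -0.07 ± 4.19 and 1.39 ± 0.67 without mouse 10 (SD, n = 4 each). It was upward in 2 of 5 knockout mice and in 5 of 5 wild-type mice. Near background were 7 of 10 KO_Pre and all 10 WT_Pre arrays, and the ratios ran from -1.88 over a median of -0.32 to 1.20 in KO_Pre and from -1.73 over -0.38 to 0.66 in WT_Pre.

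The start of Hao1 is shown as that of the gene of the 10 with the largest genotype difference in the IL-4 effect. None of the 3 motifs was found in it, and no base is in capitals. It lies at chr2:134554303-134554602, minus strand, GRCm38.p6 (RefSeq).

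Hao1: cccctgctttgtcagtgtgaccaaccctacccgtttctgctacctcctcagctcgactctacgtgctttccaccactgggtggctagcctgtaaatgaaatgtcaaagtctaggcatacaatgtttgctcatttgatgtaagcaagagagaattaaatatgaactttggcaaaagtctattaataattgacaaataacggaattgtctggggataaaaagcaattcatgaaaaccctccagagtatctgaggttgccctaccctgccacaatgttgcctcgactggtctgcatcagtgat

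Susd4 (Entrez Gene 96935, probe A_55_P1954393) encodes a sushi domain protein that inhibits complement. In the cultures with IL-4 the ratios in mice 6 to 10 were 4.52, 2.53, 3.13, 2.57 and 4.42 in KO_IL4, against 0.51, -0.69, -0.14, -0.45 and 1.01 in WT_IL4. Without IL-4 they were 0.08, 1.19, 5.71, 0.74 and 3.24 in KO_Ctrl, against 2.92, 4.23, 2.47, 2.03 and 0.63 in WT_Ctrl. With IL-4 the groups did not overlap, and without it they did, with knockout mouse 8 again the highest of all arrays. The mean difference was 3.39 (SE 0.77) with IL-4, where 3 of 5 WT_IL4 arrays were near background, and -0.26 (SE 0.77) without it. The sign of the value without IL-4 hung on single arrays, with -1.14 without KO_Ctrl mouse 8, -0.98 without mouse 10 of both genotypes, 0.10 without KO_Ctrl mouse 9, 0.18 without WT_Ctrl mouse 7 and 0.26 without KO_Ctrl mouse 6. The IL-4 effect was 1.24 ± 2.51 in knockout and -2.41 ± 1.88 in wild-type cells (SD, n = 5 each), upward in 4 of 5 knockout mice and downward in 4 of 5 wild-type mice. Without knockout mouse 8 the effect in knockout cells was 2.20 ± 1.52 (SD, n = 4). Susd4 was higher after culture alone in 4 of 5 mice of each genotype, by a mean of 2.12 ± 2.39 in knockout and 1.87 ± 1.46 in wild-type cells (n = 5 each), and of 1.67 ± 2.50 and 2.00 ± 1.65 without mouse 10 (SD, n = 4 each). Before culture Susd4 ran from -0.83 over a median of 0.20 to 1.41 in KO_Pre and from -0.73 over 0.55 to 2.24 in WT_Pre (n = 10 each).

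Cnksr1 (Entrez Gene 194231, probe A_66_P140974) encodes a scaffold that couples Ras to Raf. In the presence of IL-4 its ratios in mice 6 to 10 were 1.95, 1.61, 0.42, 2.46 and 2.64 in KO_IL4, against -0.06, -2.63, -1.59, -0.75 and -0.62 in WT_IL4. Without it they were 0.98, 0.73, 1.94, -0.06 and 0.63 in KO_Ctrl, against 2.00, 1.94, 1.52, 1.64 and 0.88 in WT_Ctrl. The IL-4 groups did not overlap, and the control groups did, with the knockout mean of 0.84 below the wild-type mean of 1.59. The mean difference was 2.94 (SE 0.49) with IL-4 and -0.75 (SE 0.49) without it. In WT_IL4 3 of 5 Cnksr1 arrays were near background and the other 2 lay below it, so the difference with IL-4 is set against a level that may not be detected. The IL-4 effect was 0.97 ± 1.56 in knockout and -2.72 ± 1.18 in wild-type cells (SD, n = 5 each), upward in 4 of 5 knockout mice and downward in 5 of 5 wild-type mice. Without knockout mouse 8, the 1 knockout mouse with a downward effect, the knockout mean was 1.60 ± 0.80 (SD, n = 4).

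Before culture Cnksr1 spread widely, from -1.35 over a median of 0.17 to 2.20 in KO_Pre and from -1.01 over -0.36 to 1.52 in WT_Pre (n = 10 each). The culture effect was 0.00 ± 1.03 in knockout and 1.54 ± 1.28 in wild-type cells (n = 5 each), and 0.39 ± 0.62 and 2.05 ± 0.65 without mouse 10 (SD, n = 4 each). The difference of the culture effects was -1.54 (SE 0.70), and -0.75 when the cells before culture of mice 1 to 5 were added to the fit. The start of Cnksr1 is shown beside that of Hao1, which moved the same way. Capitals mark TGANTCA at -170 to -164, at chr4:134238350-134238649, minus strand, GRCm38.p6 (RefSeq).

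Cnksr1: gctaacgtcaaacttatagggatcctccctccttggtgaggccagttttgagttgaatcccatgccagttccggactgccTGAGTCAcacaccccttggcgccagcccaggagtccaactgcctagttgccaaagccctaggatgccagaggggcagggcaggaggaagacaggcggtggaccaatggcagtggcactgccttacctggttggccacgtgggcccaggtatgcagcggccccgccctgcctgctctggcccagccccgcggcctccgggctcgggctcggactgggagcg

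Neither STAT form was found in the Cnksr1 window, and none of the 3 motifs in the windows of Susd4, Upb1 or Itih5. TGANTCA was present in the windows of Serpinb2, Mmp13 and Cnksr1, genes of 3 different patterns.

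**Figure D3:**
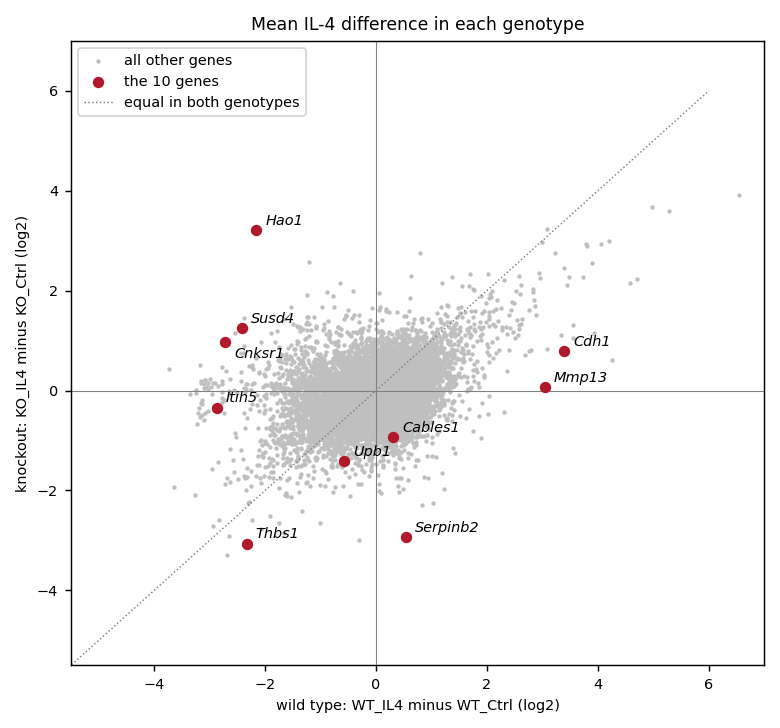
Mean log2 difference between the IL-4 culture and the culture without addition in knockout (vertical axis) and wild-type cells (horizontal axis), n = 5 mice each. Grey points are all other genes, red points the 10 genes, and the dotted line marks equal differences. Hao1 (3.21 in knockout and -2.16 in wild type), Susd4 and Cnksr1 lie to the upper left, Mmp13 and Cdh1 to the right below the line, and Serpinb2 (-2.93 in knockout and 0.55 in wild type) to the lower right.

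For 4 of the 10 genes, Hao1, Susd4, Cnksr1 and Serpinb2, the mean IL-4 effects had opposite signs in the genotypes and a size of at least 0.5 in each, as they had for 1.89% of all genes. For Serpinb2 all WT_IL4 and WT_Ctrl arrays lay below their dark corner ratios, so the sign of its wild-type effect rests on levels that may not be detected. Wild-type mouse 6 deviated from the other wild-type mice toward the knockout level in several of the 10 genes at once. With IL-4 its ratio lay on the knockout side of the mean of the other 4 wild-type mice for 9 of the 10 genes, and outside their range for 7. The 7 include Serpinb2, where its ratio of -3.07 lay beyond the knockout mean of -2.38, and the other wild-type mice averaged -2.10. Without IL-4 the ratio of mouse 6 lay on that side for 6 genes and outside the range for 4, namely Cables1, Thbs1, Upb1 and Itih5. The same counts were not taken over all genes, so these are given without further reading. Before culture the ratios of wild-type mouse 6 lay within the range of the other WT_Pre arrays for 8 of the 10 genes. Its Dock10 ratio was 1.04 with IL-4 and -0.89 without it, the lowest of the 5 wild-type mice in both, while before culture it was 0.62, the highest of the 10 WT_Pre arrays. What set these arrays apart was not tested.

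The genes were next compared before culture in mice 1 to 5, whose arrays had no part in the choice. By Xist and Eif2s3y, mice 1 to 4 of both genotypes read as female and mouse 5 as male, while every cultured array read as male. Sex was not a term in the fit. No gene of 21892 was called between KO_Pre and WT_Pre (0%, limma, adjusted p under 0.05, smallest adjusted p = 1), and 557 genes had an unadjusted p under 0.05. None of the 10 genes was called. Cnksr1 had the largest difference, with ratios of -1.12, -1.35, -1.33, -0.30 and 0.35 in KO_Pre against -0.60, -0.24, -1.01, 0.55 and 1.52 in WT_Pre of mice 1 to 5. The groups overlapped, and the difference was -0.79 (SE 0.51, 95% interval -1.92 to 0.33, adjusted p = 1 by limma), or -0.42 without WT_Pre mouse 5. Its sign was the reverse of that in mice 6 to 10 before culture, where the difference was 0.79. For the other 9 genes the difference lay between -0.24 and 0.31.

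The 95% intervals of these differences before culture in mice 1 to 5 were of unequal width. For Itih5 the interval ran from -0.35 to 0.52 and for Upb1 from -0.54 to 0.15. For Serpinb2 it ran from -0.70 to 0.63, for Cables1 from -0.85 to 0.57 and for Thbs1 from -0.85 to 0.86. For Mmp13 it ran from -0.47 to 1.08 and for Cdh1 from -0.26 to 0.72, for Hao1 from -0.73 to 0.99 and for Susd4 from -1.22 to 0.74. Differences within these bounds cannot be told from 0 with 5 mice a group. For Hao1 and Cdh1 all 5 WT_Pre arrays of mice 1 to 5 were near background, so a difference could have gone unseen in these 2.

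**Figure D4:**
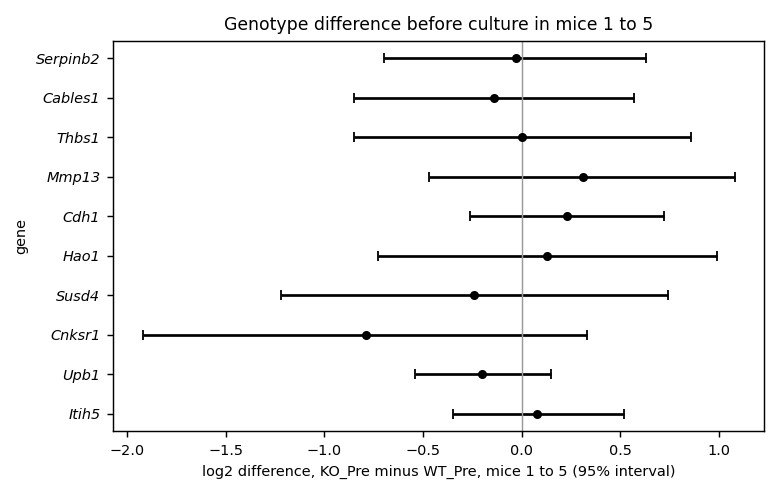
Log2 difference between KO_Pre and WT_Pre cells of mice 1 to 5 (horizontal axis, with 95% interval from limma, n = 5 each) for each of the 10 genes (vertical axis). All 10 intervals cover 0, and that of Cnksr1 is the widest.

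The 10 genes fell into sets that varied together over the 30 arrays of mice 6 to 10. These correlations describe 6 groups, of which the selection fixed the pattern, and the arrays share the reference pool. Serpinb2 and Thbs1 correlated at r = 0.82, Mmp13 and Cdh1 at 0.83, Hao1 and Susd4 at 0.81, and Itih5 and Upb1 at 0.79. Cnksr1 correlated with Hao1 at 0.60 and with Susd4 at 0.61, and inversely with Cdh1 (-0.71) and Mmp13 (-0.62). Cables1 ran inversely to Itih5 (-0.87) and Upb1 (-0.69), while its correlation with Serpinb2 was -0.12.

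**Figure D5:**
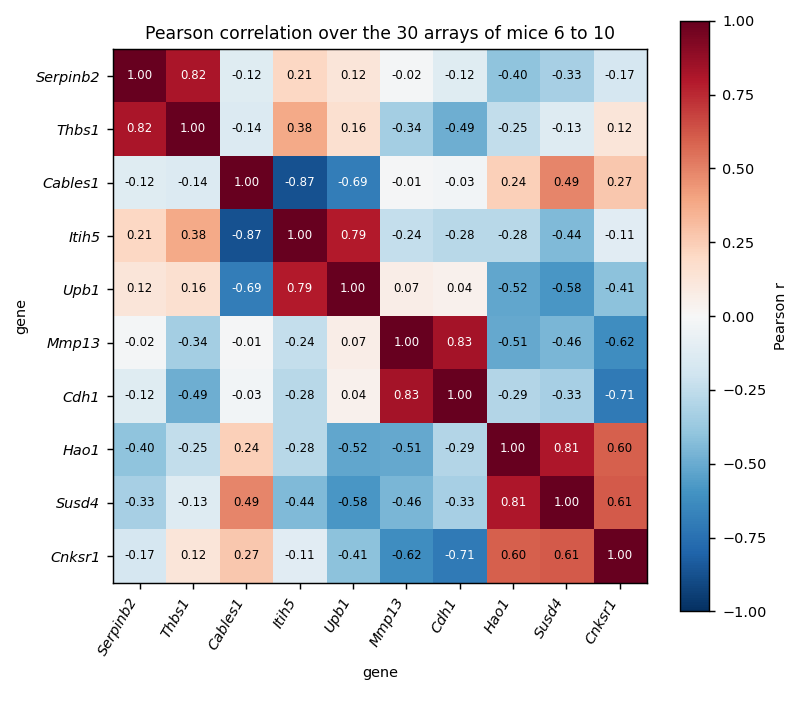
Pearson correlation between the log2 ratios of the 10 genes (both axes) over the 30 arrays of mice 6 to 10, with r printed in each cell and coloured red for positive and blue for negative values. Serpinb2 with Thbs1, Mmp13 with Cdh1, Hao1 with Susd4 and Itih5 with Upb1 reach 0.79 or more, and Cables1 and Itih5 have the lowest value, -0.87.

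For each of the 10 genes, the 2 other named genes with the most similar pattern over the same 30 arrays were looked up among 19234 genes. Itih5 had the most company, with 1010 genes at r of 0.80 or more, led by Fbxo21, an F-box protein, and Rgs14, a regulator of G protein signalling (0.98 each). Cables1 had 325 such genes, led by Ninj1, an adhesion protein of the plasma membrane (0.98), and Ftl1, the ferritin light chain (0.95). Upb1 had 203, led by the potassium channel Kcnj1 (0.95) and the lymphocyte adaptor Sash3 (0.90). Itih5, Cables1 and Upb1 thus followed courses that many other genes took, with Rgs14 for instance at -2.53 in KO_IL4 and -1.80 in WT_IL4, and -2.31 in KO_Ctrl and -0.84 in WT_Ctrl.

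Serpinb2 and Mmp13 had few genes of like pattern. Serpinb2 had 2 at r of 0.80 or more, Thbs1 (0.82) and Serpinf2 (0.81), which encodes the inhibitor of plasmin. Mmp13 had 7, led by the ribosomal protein genes Rpl15 and Rpl36al (0.85 each), whose own levels moved little (Rpl15 at 0.23 in WT_IL4 and -0.20 in WT_Ctrl). Thbs1 had 30, led by Vmn2r7, a vomeronasal receptor, and Pf4 (0.89 each). Cdh1 had 64, led by Grtp1 (0.92) and Vdr, the vitamin D receptor (0.89). The mean ratio of Vdr was 0.93 in KO_IL4 and 2.22 in WT_IL4, and -0.19 in KO_Ctrl and -1.11 in WT_Ctrl, so it too was higher with IL-4 in both genotypes and more so in wild-type cells.

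Genes of several families followed Hao1, Susd4 and Cnksr1. Hao1 had 61 genes at r of 0.80 or more, led by the protocadherin Pcdhb21 (0.92) and the cytochrome P450 Cyp3a13 (0.91). Susd4 had 141, led by the vomeronasal receptor Vmn1r183 (0.93) and the zinc finger gene Zfp488 (0.90). Cnksr1 had 102, led by Wfdc6a, of a family of protease inhibitors, and Trim43b, a tripartite motif gene (0.95 each). Trim43b averaged 1.51 in KO_IL4 and -1.50 in WT_IL4, and 1.35 in KO_Ctrl and 1.67 in WT_Ctrl, beside 1.82, -1.13, 0.84 and 1.59 for Cnksr1 in the same order.

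The pathways of the 10 genes were examined through 116 other genes. With IL-4, 13 of them were called higher and 13 lower in knockout cells by limma, and 90 were not called, where 8.57% and 9.85% of all genes were called higher and lower. Without IL-4, 6 were called higher and 15 lower, against 6.87% and 8.43% of all genes. The median difference of the 116 was -0.05 with IL-4 and 0.09 without it, and that of all genes -0.08 and 0.05. After quantile normalization the calls were 5 higher and 2 lower with IL-4, and 0 higher and 4 lower without it, with 3.98% and 2.64% of all genes called with IL-4 and 0.598% and 2.42% without it. The WT_IL4 means of Reck, Mmp10, Mmp7, Dpyd and Cnksr2, named below, lay within 0.5 of that group's mean dark corner ratio, -0.52. The WT_Ctrl means of Cd55 and Cnksr3 lay within 0.5 of that group's, -1.07. These differences are thus set in part against levels that may not be detected. For the former genes quantile normalization left differences with IL-4 of 0.81 to 1.18, and for Cd55 and Cnksr3 without IL-4 -0.82 and -0.75.

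Among matrix metalloproteinases and their inhibitors, 5 of 20 were called higher, 1 lower and 14 not called in KO_IL4, with a median difference of 0.02, where 8.57% of all genes were called higher and 9.85% lower. Of the 5 called higher, 2 are inhibitors, Reck and Timp3. Reck, a membrane-bound inhibitor of these proteases, averaged 1.25 in KO_IL4 and -0.09 in WT_IL4 (log2 difference 1.34, SE 0.32, adjusted p = 0.00502 by limma). Mmp10, stromelysin 2, averaged 0.75 and -0.72 in the same groups (1.47, SE 0.51, adjusted p = 0.0426), and Mmp7, matrilysin, 0.34 and -0.73 (1.07, SE 0.36, adjusted p = 0.0381). Without IL-4 1 of 20 was called higher and 2 lower. In the plasminogen system 1 of 11 was called higher and 2 lower with IL-4, and 1 each without it. Serpinb8, a relative of Serpinb2, averaged 2.12 in KO_IL4 and 0.87 in WT_IL4 (1.24, SE 0.29, adjusted p = 0.00375). Plat, which encodes tissue plasminogen activator, averaged -0.93 in KO_IL4 and -1.94 in WT_IL4 and was not called (1.01, SE 0.78, adjusted p = 0.368). Both Plat means lay near or below the mean dark corner ratios of these groups, -1.08 and -0.52.

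Hmmr, the hyaluronan-mediated motility receptor, was the 1 gene of 13 called in the hyaluronan list of Itih5 with IL-4. It averaged 2.36 in KO_IL4 and 0.14 in WT_IL4 (log2 difference 2.22, SE 0.37, adjusted p = 0.0003 by limma). Without IL-4 1 of the 13 genes was called higher and none lower, and Hmmr itself was at 2.32 in KO_Ctrl and 1.96 in WT_Ctrl and was not called. Itgb3, an integrin beta chain that is part of a thrombospondin receptor, was at 2.14 in KO_IL4 and 2.21 in WT_IL4 and was not called there. Without IL-4 it averaged 1.44 in KO_Ctrl and 0.17 in WT_Ctrl (1.27, SE 0.25, adjusted p = 0.000826). In its list of 13, 4 were called lower with IL-4, and 1 was called higher and 2 lower without it. Cdh5, vascular endothelial cadherin, averaged -2.05 in KO_IL4 and -0.22 in WT_IL4 and was not called (-1.83, SE 0.74, adjusted p = 0.0826). The KO_IL4 mean of Cdh5 lay below that group's mean dark corner ratio, and the WT_IL4 mean near that of its group. In the E-cadherin list 1 of 15 was called, lower, in each state.

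In the list of Hao1, with enzymes of glyoxylate metabolism, catalase and import receptors of the peroxisome, 1 of 8 other genes was called higher with IL-4, and 1 was called higher and 1 lower without it. None of the 8 differed 2-fold. In pyrimidine breakdown, the pathway of Upb1, 1 of 7 was called, higher, with IL-4 and none without it. That gene, Dpyd, encodes the first enzyme of the pathway and averaged 0.86 in KO_IL4 and -0.45 in WT_IL4 (log2 difference 1.31, SE 0.39, adjusted p = 0.0214 by limma).

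Among 11 complement regulators, 1 was called higher and 1 lower with IL-4, and 3 lower without it. Cd55, which speeds the decay of complement convertases on the cell surface, averaged -1.88 in KO_Ctrl and -0.84 in WT_Ctrl (log2 difference -1.04, SE 0.20, adjusted p = 0.000561 by limma). Of 9 other scaffolds and kinases in the Ras and Raf list of Cnksr1, 2 were called higher and 1 lower with IL-4, and 1 lower without it. Cnksr2, a paralog of Cnksr1, averaged 0.94 in KO_IL4 and -0.11 in WT_IL4 (1.05, SE 0.26, adjusted p = 0.00709). Cnksr3, another paralog, averaged -1.64 in KO_Ctrl and -0.59 in WT_Ctrl (-1.05, SE 0.21, adjusted p = 0.000971). Of 9 other genes in the list of Cables1, which holds its paralog Cables2, kinases, a kinase activator and inhibitor and the partner protein Tdrd7, 1 was called higher and 3 lower with IL-4, and 1 higher and 4 lower without it, none of them 2-fold.

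Markers of other cells were read in the same arrays. Of all genes, 8.57% were called higher and 9.85% lower with IL-4, and 6.87% and 8.43% without it. The 12 macrophage and monocyte markers averaged -1.17 in KO_IL4 and -1.05 in WT_IL4, and -0.67 in KO_Ctrl and -0.60 in WT_Ctrl. Of these, Mrc1 was called lower with IL-4 (log2 difference -1.59) and without it (-1.73). Its means of -4.51 in KO_IL4, -2.92 in WT_IL4, -4.61 in KO_Ctrl and -2.87 in WT_Ctrl all lay below the mean dark corner ratios of these groups. Quantile normalization left -0.84 with IL-4 and -1.39 without it. Marco was called lower without IL-4 (-1.05), and no marker of this list was called higher. The 8 neutrophil markers averaged -0.91 (range -1.16 to -0.71) in KO_IL4 and -0.28 (-0.54 to -0.11) in WT_IL4. Of the 8, 1 was called higher and 2 lower. The 6 T cell markers averaged 0.21 (0.02 to 0.56) in KO_IL4 and 0.79 (-0.10 to 1.55) in WT_IL4, and their members went both ways. With IL-4 Cd3d (log2 difference -2.22), Cd3g (-2.41) and Cd8a (-1.67) were called lower and Cd28 (2.20) higher in knockout cells. Without IL-4 the mean was 0.32 (-0.09 to 0.62) in KO_Ctrl and 0.68 (-0.18 to 1.48) in WT_Ctrl, with Cd3g (-2.24) called lower and Cd28 (2.03) higher. The KO_IL4 means of Cd3d and Cd3g, the KO_Ctrl mean of Cd3g and the WT_IL4 mean of Cd8a lay within 0.5 of those groups' mean dark corner ratios. The differences of Cd3d, Cd3g and Cd8a are thus set in part against levels that may not be detected. With IL-4 quantile normalization left -1.99, -2.07 and -1.2 for them, and 1.55 for Cd28. The 7 markers of stroma and endothelium averaged -0.78 (-1.63 to -0.34) in KO_IL4 and -0.57 (-0.80 to -0.28) in WT_IL4, with 1 called lower. Their part in the differences of Mmp13, Cdh1, Hao1, Susd4 and Cnksr1 was not tested.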

How the data were processed

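Arrays with 2 dyes were hybridised with a sample in Cy5 and the reference pool in Cy3, per the labels. The values deposited by the authors are log2 ratios of sample to reference, 1 per probe and array, from signals extracted with Agilent Feature Extraction 11.0.1.1, per the submitters' processing notes. For the normalization and the genome build, the sources used here name nothing.

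Of 39485 probes, 30625 carried 1 gene symbol. Values were averaged per gene over its probes (21892 genes, 0 missing), with no further normalization or filter, and precision is limited by how many arrays there are. The 10 genes, the gene lists and the tests were chosen with earlier results of these data known. KO_Pre was compared with WT_Pre in mice 1 to 5 by limma 3.58.1 in R 4.3.3 (eBayes, Benjamini-Hochberg adjustment over all genes, called at an adjusted p under 0.05). Differences after culture were estimated in a single fit to all 30 arrays from mice 6 to 10, and calls of the other pathway genes and markers from the same fit, a use added after the design was set. For the 10 genes that fit gives values and SE only. The fits were tested on simulated data. Named genes were the 10, Dock10, the 2 with the highest Pearson correlation to each, and up to 3 per pathway list with a difference of at least 2-fold between genotypes in either cultured state, clone, predicted and numbered symbols left out.

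Alternatives were median centring, quantile normalization, tests per probe, a filter on the SD, eBayes with trend and robust settings, other sets of arrays, the mouse number as a replicate block, leaving out arrays or mice, Spearman correlation and, added after seeing the data, the dark corner ratio as a covariate. Cells of the same mouse with and without IL-4 are pairs by animal, per the labels. The correlation of their deviations from the group means was -0.281 to 0.276 in knockout and 0.171 to 0.295 in wild-type cells, and means over mice are the same with and without this pairing. The SE are not, and those given here for differences of IL-4 and culture effects come from the fit without pairing.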

Additional observations from a re-analysis of the deposited data

Results flagged for a closer look

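Each of the 60 sets of 5 or 10 arrays, 1 per gene and group, was examined for an array far from the others by Dixon's criterion, and 3 were found. Chance flags about 1 in 20 such sets. Mmp13 in KO_Pre cells of mouse 5 had a log2 ratio of -0.90, where the other 9 KO_Pre arrays lay between -0.03 and 0.80. Cdh1 in KO_Ctrl cells of mouse 7 had a ratio of 0.30, where the other 4 lay between -1.22 and -0.93 and near the dark corner ratio. Upb1 in WT_Ctrl cells of mouse 6 had a ratio of -0.36, where the other 4 lay between 0.41 and 0.63.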

How the results depend on the processing

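None of the differences of the 10 genes between the groups of mice 6 to 10 changed sign, for those of at least 2-fold, under median centring, quantile normalization, all 40 arrays, the background ratio as a covariate, the replicate block, or leaving out an array, mouse 10 or wild-type mouse 6. The counts of called pathway genes (13 higher and 13 lower with IL-4, 6 higher and 15 lower without it) moved more. Quantile normalization left 5 and 2 with IL-4 and 0 and 4 without it, median centring 3 higher without IL-4, and leaving out mouse 10 of both genotypes 7 and 7 with IL-4. Leaving out 1 array at a time gave 7 to 13 higher and 8 to 15 lower with IL-4, and 3 to 8 higher and 13 to 16 lower without it. The replicate block gave 14 and 17 with IL-4 and 6 and 16 without it. The lowest of these came without KO_IL4 mouse 10 (7 higher and 8 lower with IL-4) and without WT_Ctrl mouse 9, KO_Ctrl mouse 7 or KO_Ctrl mouse 10 (3 higher without IL-4). Counts of 8 came without KO_IL4 mouse 9 (higher and lower) and without WT_IL4 mouse 8 or 10 (lower). The cause of these shifts was not tested beyond the smaller number of arrays. By Spearman correlation, 7 of the 20 most similar genes were the same as by Pearson correlation.

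Equal numbers in KO_Pre and WT_Pre of mice 1 to 5 correlated in their deviations from the group means at 0.037 to 0.42, not all over 0.1, so these mice were not treated as pairs. The mean correlation was 0.253 for equal and -0.063 for unequal numbers, and equal numbers also shared the sex reading. The numbers may thus mark something shared that the fit without a block leaves out. With the mouse number as a replicate block 0 genes were called in that comparison (smallest adjusted p = 0.727 by limma). Unadjusted p under 0.05 were then found for 958 genes (4.38%), against 557 (2.54%) without the block. Cnksr1 then had a p of 0.00277 by limma before adjustment and of 0.75 after it. With all 20 arrays before culture 0 genes were called by limma and 892 had an unadjusted p under 0.05. Tests on each probe of the 10 genes apart were not run, since each has 1 probe. Signals over background were not used here, which limits what can be said of genes near the dark corner ratio.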
